A study of Mus musculus with 16 samples.

Results

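The genes described here encode the secreted and membrane-bound matrix metalloproteinases (Mmp), their tissue inhibitors (Timp), the ADAMTS metalloproteinases with their ADAMTS-like relatives, and the lysyl oxidases (Lox, Loxl). They were taken as every annotated gene symbol of these families in the deposited expression table, which gave 54 genes among 24479 probe sets, each represented by 1 probe set. The table comes from microarrays of whole-tissue liver RNA from male mice aged 16 months. Tumour-bearing mice carried floxed Axin1 (Axin1 fl/fl) and the Alfp-Cre transgene, which the labels give as active in embryonic hepatocytes. Cells of other lineages, such as macrophages, stellate and endothelial cells, keep the gene, while bile duct cells arise from the same embryonic precursors as hepatocytes and may have lost it. Such mice form liver tumours with age. The 3 groups were normal liver from non deleted mice (3 arrays, 3 mice), non-tumoral liver adjacent to tumours (5 arrays, 5 mice) and tumours (8 arrays, 6 mice). Of the tumour arrays, 3 came from mouse 121, titled without a number, Tumor2 and Tumor3, and 4 mice (81, 121, 123 and 124) gave both adjacent liver and tumour. The adjacent sample numbered 1931 and the tumours numbered 90 and 93 had no partner of the same number.

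Collagen, elastin, laminin and proteoglycans form the scaffold around liver cells, and it is turned over by these enzymes. Metalloproteinases are made as inactive zinc enzymes that are cut to become active, and TIMPs block them by binding the active site, so transcript levels measure neither activity nor protein. Lysyl oxidases act the other way: they oxidise lysines of collagen and elastin so that fibres become crosslinked. In liver, these genes are known mainly from stellate cells, macrophages and other cells between the hepatocytes, and from scarring and tumour growth.

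Axin1 lay at 5.07, 5.24 and 5.48 (log2 signal) in the 3 control arrays and at 3.90 to 4.81 in the 13 arrays of deleted mice. The mean of 8 hepatocyte markers was 11.08 to 11.88 on all 16 arrays, and array medians were 4.37 to 4.50. A few arrays stood apart from their groups. Control liver 10 had a neutrophil marker mean of 6.39, against 3.83 to 3.93 in the other controls, and a macrophage marker mean of 7.64 against 5.17 and 5.75. Adjacent liver 121 had a lymphocyte marker mean of 5.16, against 3.79 to 4.02 in the other adjacent livers. The tumour of mouse 93 had the fewest members above all control and adjacent arrays, with 4 against 7 to 18 in the other tumours. Of all genes, 10.5% lay above those arrays in this tumour, and 9.57% to 17.2% in the other tumours. In whole-tissue RNA, fewer cells of a type and less RNA per cell cannot be told apart.

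Many members gave little signal. The median of all values in the table was 4.43, and 28 of the 54 members exceeded it on at least 3 arrays (51.9%, against 55.3% of all genes), 13 did so on all arrays and 22 on none. The interstitial collagenase genes Mmp1a and Mmp1b, the stromelysin genes Mmp3 and Mmp10, and the enamel protease gene Mmp20 were among the 22, and their values are given as descriptions only.

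The tumours carried more RNA of a small set of members than the liver around them, with mean differences of at least 2-fold for Mmp12, Loxl2, Timp1 and Mmp13 (4 members, against 1.5% of all genes) and of 2-fold or more downward for none (0.945% of all genes). No member passed an adjusted p of 0.05 in limma, where 36 of the 23279 genes tested (0.155%) did. At an unadjusted p under 0.05 in limma, 10 of 54 members were higher in tumours than in adjacent liver and none was lower, against 6.95% higher and 8.32% lower among all genes. The median log2 difference of the members was 0.08, against -0.03 for all genes. No member had tumour and adjacent arrays that did not overlap, against 1.12% of all genes higher and 1.11% lower. In each comparison below, the value for mouse 121 was the mean of its 3 tumours, errors are standard errors of the fitted log2 difference, and adjusted p-values are from limma with Benjamini-Hochberg adjustment over all genes.

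Against control liver, 10 members were higher and 1 was lower in tumours at an unadjusted p under 0.05, where 5.65% of all genes were higher and 6.88% lower. None passed the adjusted threshold, which 6 of all genes passed (0.0258%). Differences of at least 2-fold were found for Mmp12, Loxl2, Timp1, Mmp13, Mmp7 and Lox upward (6 members, against 1.54% of all genes) and for none downward (0.889%). With mouse 121 as 1 value, 6 members (Mmp12, Mmp13, Lox, Loxl2, Adamts1 and Adamts4) had every tumour value above every control value, against 2.11% of all genes, and Adamts13 and Mmp20 had every tumour value below, against 3.08%, the latter below 4.43 on every array. This comparison and that with adjacent liver share the tumour arrays.

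**Figure D1:**
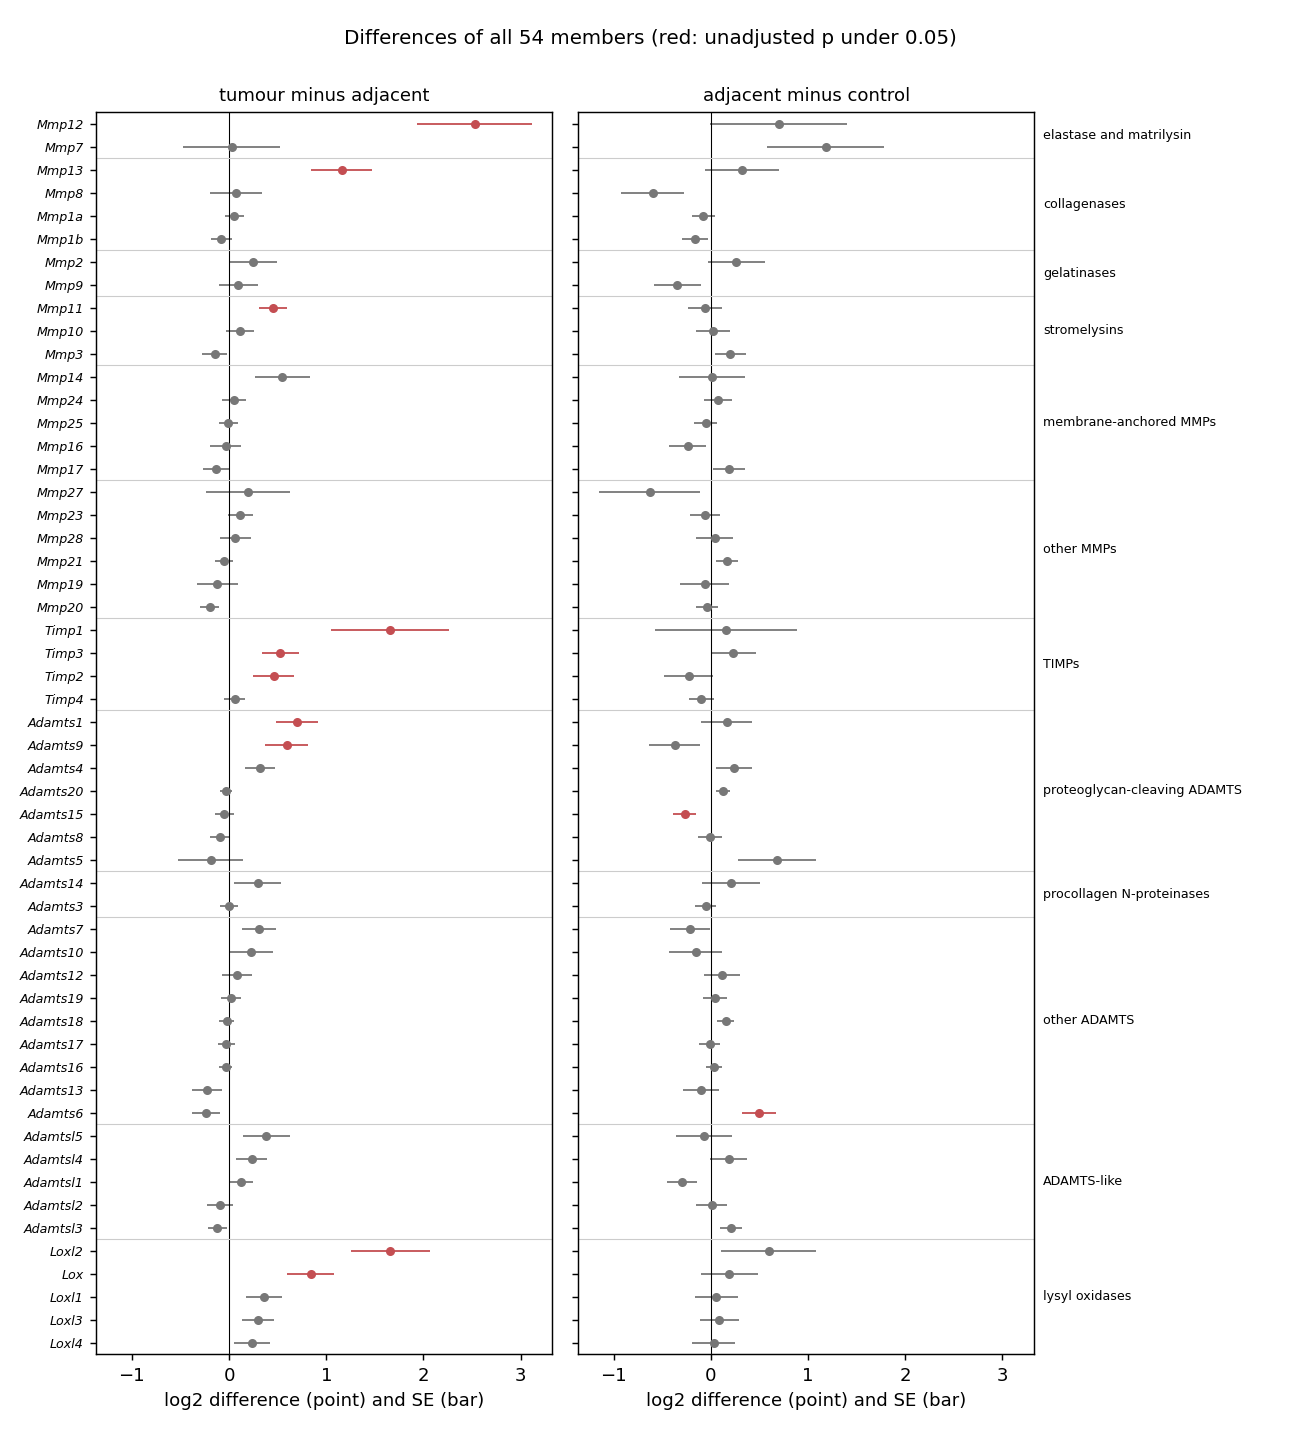
Fitted log2 differences of the 54 members (x axis, points, with the standard error as bar) between tumour and adjacent liver (left) and between adjacent and control liver (right), members by role on the y axis, red where the unadjusted p was under 0.05. In the left panel Mmp12, Loxl2, Timp1 and Mmp13 lie farthest right, at 2.53, 1.66, 1.65 and 1.16, and in the right panel 2 members are red.

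Mmp12, the macrophage elastase, which cleaves elastin, had the largest difference of the set in both tumour comparisons. It lay at 4.57, 5.01 and 4.59 in control livers 10, 11 and 12. In adjacent livers 81, 121, 123, 124 and 1931 it lay at 4.57, 7.47, 4.84, 5.58 and 4.64. In tumours 81, 90, 93, 123 and 124 it lay at 9.52, 8.70, 6.78, 8.82 and 6.57, and in the 3 tumours of mouse 121 at 8.56 (unnumbered), 6.10 (Tumor2) and 7.23 (Tumor3). Every tumour exceeded every control and 4 of the 5 adjacent livers, and only adjacent liver 121 overlapped with the tumours. The difference was 2.53 ± 0.59 against adjacent liver (5.76-fold, adjusted p = 0.0764) and 3.22 ± 0.69 against control (9.34-fold, adjusted p = 0.0998), with all 6 tumour-bearing mice above the mean of the other group in both. Without adjacent liver 121 the first difference was 3.04 ± 0.51 with an adjusted p of 0.0413, when 25 of all genes passed the adjusted threshold. Without the tumour of mouse 93 it was 2.76 with 0.0278, when 743 of all genes passed. With the unnumbered tumour alone standing for mouse 121 it was 2.74 with 0.0476, when 157 of all genes passed.

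Mmp13, the main interstitial collagenase of the mouse, which cuts fibrillar collagen, lay at 2.97, 2.98 and 3.33 in controls. Adjacent livers 81, 121, 123, 124 and 1931 gave 3.34, 4.0, 3.35, 3.22 and 3.14. Tumours 81, 90, 93, 123 and 124 gave 5.90, 3.62, 4.27, 5.13 and 4.21, and the tumours of mouse 121 gave 4.95, 3.86 and 4.08. Tumours 81, 123 and the unnumbered tumour of mouse 121 were the arrays on which this gene exceeded the table's median of 4.43, and the tumour of mouse 90 was the lowest, unlike its high place for Mmp12. The difference was 1.16 ± 0.32 against adjacent liver (2.23-fold, adjusted p = 0.108) and 1.48 ± 0.37 against control (adjusted p = 0.132). Of the other collagenases, neutrophil collagenase Mmp8 lay at 4.91 in control 10 and at 2.74 to 3.38 on the other 15 arrays.

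Mmp12 and Mmp13 are neighbours in a run of 10 protein-coding genes on chromosome 9 that are all members, in the order Mmp13, Mmp12, Mmp1b, Mmp3, Mmp1a, Mmp10, Mmp8, Mmp27, Mmp20 and Mmp7. Genes of the run differed in the arrays on which they gave signal. Mmp1b, Mmp3, Mmp1a, Mmp10 and Mmp20 stayed below 4.43 on every array, Mmp8 exceeded it on 1 array and Mmp13 on 3, while Mmp12 and Mmp7 exceeded it on all 16. Promoter windows from RefSeq (GRCm38.p6, 250 bases before to 50 after a listed start) were found for 35 of the 54 members, 38 windows in all, including all 10 genes of the run. The AP-1 motif TGANTCA occurred on either strand in 8 of the 38 windows (21.1%), against 7.81% of all 32851 windows, and all 8 belonged to the run (Mmp1a, Mmp1b, Mmp3, Mmp7, Mmp10, Mmp12, Mmp13 and Mmp20). The TATA motif TATAAA was in 31.6% of member windows against 13.6% of all. The 130 bases before the listed start are shown for 2 genes of the run with high tumour values, Mmp12 and Mmp13, for the variable Mmp7, and for Mmp3 and Mmp10, which stayed below 4.43 on every array; capitals mark the AP-1 and TATA letters, which do not overlap.
Mmp13, chr9:7272384-7272513, plus strand: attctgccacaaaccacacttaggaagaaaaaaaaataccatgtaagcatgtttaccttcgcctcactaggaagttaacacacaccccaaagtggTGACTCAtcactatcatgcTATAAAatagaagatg
Mmp12, chr9:7347244-7347373, plus strand: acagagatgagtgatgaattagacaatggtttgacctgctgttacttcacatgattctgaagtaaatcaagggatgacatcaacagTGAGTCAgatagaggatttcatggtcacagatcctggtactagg
Mmp3, chr9:7445692-7445821, plus strand: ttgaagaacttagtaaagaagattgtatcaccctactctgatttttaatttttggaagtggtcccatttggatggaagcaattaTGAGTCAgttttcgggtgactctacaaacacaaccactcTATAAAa
Mmp10, chr9:7502212-7502341, plus strand: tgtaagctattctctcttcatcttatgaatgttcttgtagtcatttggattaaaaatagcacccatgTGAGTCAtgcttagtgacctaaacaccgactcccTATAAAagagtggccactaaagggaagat
Mmp7, chr9:7691960-7692089, plus strand: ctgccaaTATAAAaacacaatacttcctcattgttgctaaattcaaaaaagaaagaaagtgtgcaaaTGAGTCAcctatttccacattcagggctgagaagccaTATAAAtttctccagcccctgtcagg
The AP-1 letters begin 35 (Mmp13), 44 (Mmp12), 46 (Mmp3), 63 (Mmp10) and 63 (Mmp7) bases before the start, so the letters stand both in genes that were higher in tumours and in genes below 4.43 on every array. Mmp12 has 2 listed starts, and the window shown is the one with the AP-1 motif. The TATA letters of that Mmp12 window lie 4 bases after the start, outside the stretch shown. Of the other 4 motifs searched on both strands, the TCF/LEF letters CTTTGAT were found among members in Mmp7 alone, 4 bases after the start and outside the stretch shown (5.26% of member windows, counted for both of its listed starts, against 3.73% of all). CTTTGAA was in 2.63% against 5.14%, the ETS letters AGGAAG in 42.1% against 35.4%, and the NF-kB consensus in 0 of 38 against 0.155%. Such matches are descriptions of letters and show no binding.

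Mmp7, matrilysin, a protease known from epithelia including bile ducts, had the widest range among the tumours of mouse 121. It lay at 4.92, 4.87 and 5.34 in controls and at 7.04, 7.50, 5.48, 5.74 and 5.35 in adjacent livers 81, 121, 123, 124 and 1931. Tumours 81, 90, 93, 123 and 124 gave 7.16, 5.87, 5.35, 4.74 and 7.02, and the 3 tumours of mouse 121 gave 8.20, 4.63 and 9.18. Thus both the lowest and the highest tumour value came from 1 mouse, with a range of 4.55 between its tumours. The adjacent livers all exceeded the controls (log2 difference 1.18 ± 0.61, adjusted p = 0.9985), and tumours and adjacent liver differed by 0.03 ± 0.50 (95% confidence interval -1.05 to 1.10). The mean of 7 cholangiocyte markers was 4.46 in tumour 81 and 4.66 in Tumor3 of mouse 121, against 3.62 to 3.97 on the other 14 arrays; the unnumbered tumour of mouse 121, with Mmp7 at 8.20, lay at 3.96. The part of bile duct cells in the Mmp7 values was not tested.

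The gelatinases, which degrade denatured collagen and basement membrane, had no group difference with an unadjusted p under 0.05 in limma. Mmp2 lay at 4.26, 4.59 and 4.20 in controls, at 4.05 to 5.26 in adjacent livers and at 4.31 to 5.61 in tumours. Its tumour minus adjacent difference was 0.25 ± 0.24 (95% confidence interval -0.27 to 0.77), and its tumour minus control difference was 0.51. Its highest values were 5.61 in tumour 81, 5.48 in Tumor3 of mouse 121 and 5.26 in adjacent liver 121, so that groups overlapped widely. Mmp9 lay at 4.58 in control 10 and at 3.10 to 3.89 on the other 15 arrays. The matrix metalloproteinase Mmp27 had a like outlying control, with 7.05 in control 10 against 4.54 and 4.55 in the other controls, but was also high in tumour 81 (6.35). Leaving out control 10 moved the adjacent minus control differences of Mmp8 from -0.60 to 0.03, of Mmp9 from -0.35 to 0.07 and of Mmp27 from -0.63 to 0.21, each a change of sign; none of these differences had an unadjusted p under 0.05. The part of neutrophils and macrophages, whose marker means were highest in control 10, was not tested.

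Among stromelysins, Mmp11 (stromelysin-3) was higher in tumours than in adjacent liver by 0.45 ± 0.15 (adjusted p = 0.154), with values of 3.07 to 4.17 in tumours, 3.06 to 3.39 in adjacent livers and 3.12 to 3.50 in controls. All of these values lie below 4.43. Membrane type 1 metalloproteinase Mmp14, which activates the proenzyme of Mmp2 and cuts collagen at the cell surface, exceeded 4.43 on every array. It lay at 7.49, 7.10 and 7.18 in controls and at 7.05 to 7.46 in adjacent livers. Tumours 81, 90, 93, 123 and 124 gave 7.91, 8.65, 7.18, 8.5 and 6.76, and those of mouse 121 gave 8.29, 8.0 and 7.39. The tumours therefore spread to both sides of the narrow adjacent range, with 5 of 8 arrays above all non-tumour arrays and that of mouse 124 below all of them. The difference of 0.55 ± 0.28 against adjacent liver had an adjusted p of 0.376. Mmp19, a secreted basement membrane protease, lay at 7.47 to 7.66 in controls, 7.29 to 7.85 in adjacent livers and 6.75 to 8.15 in tumours, with a difference of -0.12 ± 0.21.

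**Figure D2:**
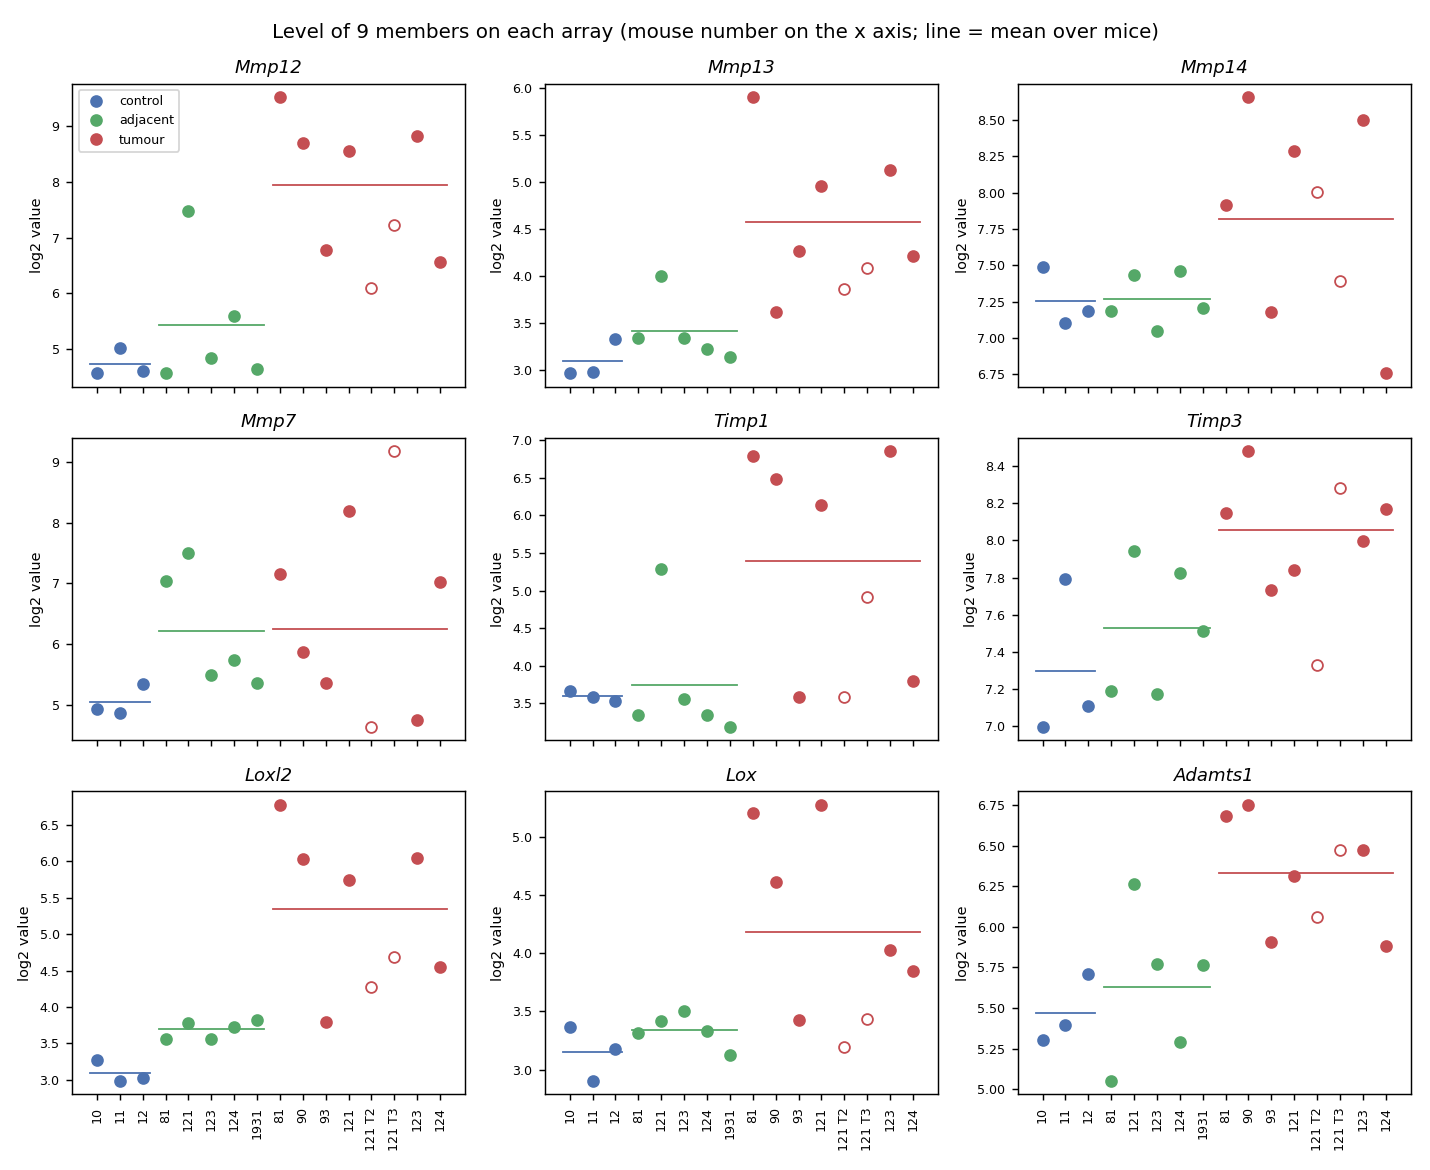
Log2 signal (y axis) of 9 members on each array (x axis, mouse number), coloured by group; points are arrays, open points are Tumor2 and Tumor3 of mouse 121, and lines are group means over mice. Loxl2 tumours span 3.79 to 6.77 above controls at 2.99 to 3.27, and Timp1 tumours fall into 4 arrays at 6.14 to 6.85 and 4 at 3.58 to 4.91.

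The inhibitors had differences of unlike size. Timp1, a secreted inhibitor induced in scarring liver, lay at 3.66, 3.58 and 3.52 in controls and at 3.34, 5.29, 3.55, 3.35 and 3.19 in adjacent livers 81, 121, 123, 124 and 1931. Tumours 81, 90, 93, 123 and 124 gave 6.79, 6.48, 3.58, 6.85 and 3.79, and the tumours of mouse 121 gave 6.14, 3.59 and 4.91. High tumours lay about as far from low ones as from control liver: tumour 93 and Tumor2 of mouse 121 were within the control range. The difference against adjacent liver was 1.65 ± 0.61 (3.15-fold, adjusted p = 0.203, 5 of 6 mice above the adjacent mean), and against control 1.81 ± 0.71 (adjusted p = 0.307). Timp3, which is held in the matrix and also inhibits ADAMTS enzymes, had a stronger signal and smaller differences, with 7.0 to 7.79 in controls, 7.17 to 7.94 in adjacent livers and 7.33 to 8.48 in tumours (0.53 ± 0.19 against adjacent liver, adjusted p = 0.200; 0.76 ± 0.22 against control, adjusted p = 0.183). Timp2 was higher in tumours than in adjacent liver by 0.46 ± 0.21 (adjusted p = 0.316), and its unadjusted p was under 0.05 in 10 of 23 alternative analyses. Timp4 lay between 3.45 and 4.02 on all arrays.

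Of the lysyl oxidases, Loxl2 and Lox were higher in tumours. Loxl2, which crosslinks collagen IV and fibrillar collagen, lay at 3.27, 2.99 and 3.03 in controls and at 3.56, 3.78, 3.57, 3.72 and 3.82 in adjacent livers 81, 121, 123, 124 and 1931. Tumours 81, 90, 93, 123 and 124 gave 6.77, 6.03, 3.79, 6.04 and 4.55, and the tumours of mouse 121 gave 5.74, 4.27 and 4.69. Controls, adjacent livers and tumours formed 3 ascending ranges, and tumour 93 was the only tumour that overlapped with adjacent liver. The difference was 1.66 ± 0.40 against adjacent liver (3.16-fold, adjusted p = 0.0832) and 2.25 ± 0.47 against control (4.76-fold, adjusted p = 0.0992), and that between adjacent and control liver was 0.59 ± 0.49 (adjusted p = 0.9985). Without tumour 93 the first 2 were 1.97 (adjusted p = 0.0100) and 2.56 (adjusted p = 0.0134), and the same omission took the number of all genes past the adjusted threshold from 36 to 743 against adjacent liver and from 6 to 242 against control.

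Lox itself lay at 3.36, 2.91 and 3.17 in controls and at 3.13 to 3.50 in adjacent livers. Tumours 81, 90, 93, 123 and 124 gave 5.20, 4.61, 3.43, 4.03 and 3.85, and the tumours of mouse 121 gave 5.27, 3.20 and 3.44. Tumour 93 and Tumor2 and Tumor3 of mouse 121 were no higher than the highest adjacent liver. The difference against adjacent liver was 0.84 ± 0.24 (1.79-fold, adjusted p = 0.123), or 0.99 with an adjusted p of 0.0305 without tumour 93. Loxl3 differed by 0.30 ± 0.17 (adjusted p = 0.416), Loxl1 by 0.36 ± 0.18 (adjusted p = 0.371) and Loxl4 by 0.24 ± 0.19 (adjusted p = 0.590), so all 5 family members had positive differences, as did 10240 of the 23279 genes, and 2 had an unadjusted p under 0.05 (background 6.95% higher).

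The proteoglycan-cleaving ADAMTS enzymes had smaller differences and no common direction. Adamts1, which cleaves versican and aggrecan, lay at 5.30, 5.39 and 5.71 in controls, at 5.05, 6.27, 5.77, 5.29 and 5.77 in adjacent livers and at 5.88 to 6.75 in tumours. It was higher than adjacent liver by 0.70 ± 0.22 (adjusted p = 0.146) and than control by 0.86 ± 0.26 (adjusted p = 0.183), with all tumours above all controls. Adamts9 was higher than adjacent liver by 0.59 ± 0.22 (adjusted p = 0.206), but its control values of 4.39 to 4.77 lay inside the tumour range of 4.07 to 5.27. Adamts4 lay at 3.80 to 4.07 in controls, 4.09 to 4.37 in adjacent livers and 4.01 to 5.16 in tumours, and differed from control by 0.56 ± 0.18 (adjusted p = 0.213). The tumour of mouse 90 held the highest Adamts4 value, and Tumor3 of mouse 121 the lowest among tumours. Adamts5, an aggrecanase, was instead highest in single samples of several kinds, with 5.41 and 5.39 in adjacent livers 121 and 124, 5.78 in Tumor3 of mouse 121 and 3.42 in tumour 81, the lowest value of all. Adamts15, which stayed below 4.43 on every array, was lower in tumours than in control by 0.32 ± 0.11 (adjusted p = 0.260). Its control values were 3.96 to 4.36 and its tumour values 3.65 to 3.97. Its unadjusted p was under 0.05 in 20 of 21 alternative analyses, and not without control 12.

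Among the other ADAMTS and ADAMTS-like genes, single tumours stood out rather than the group. Adamts14, a procollagen N-proteinase, reached 5.57 in tumour 90 and lay at 3.77 to 4.83 on the other arrays. Adamtsl5 reached 5.63 in tumour 90, against 3.82 to 4.95 elsewhere. Adamtsl2, a fibrillin-binding relative without a protease domain, lay at 5.06 to 5.83 on all arrays with a tumour minus adjacent difference of -0.09 ± 0.13. Adamtsl4 differed from control by 0.42 ± 0.19 (adjusted p = 0.380), and its unadjusted p was under 0.05 in 11 of 22 alternative analyses.

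**Figure D3:**
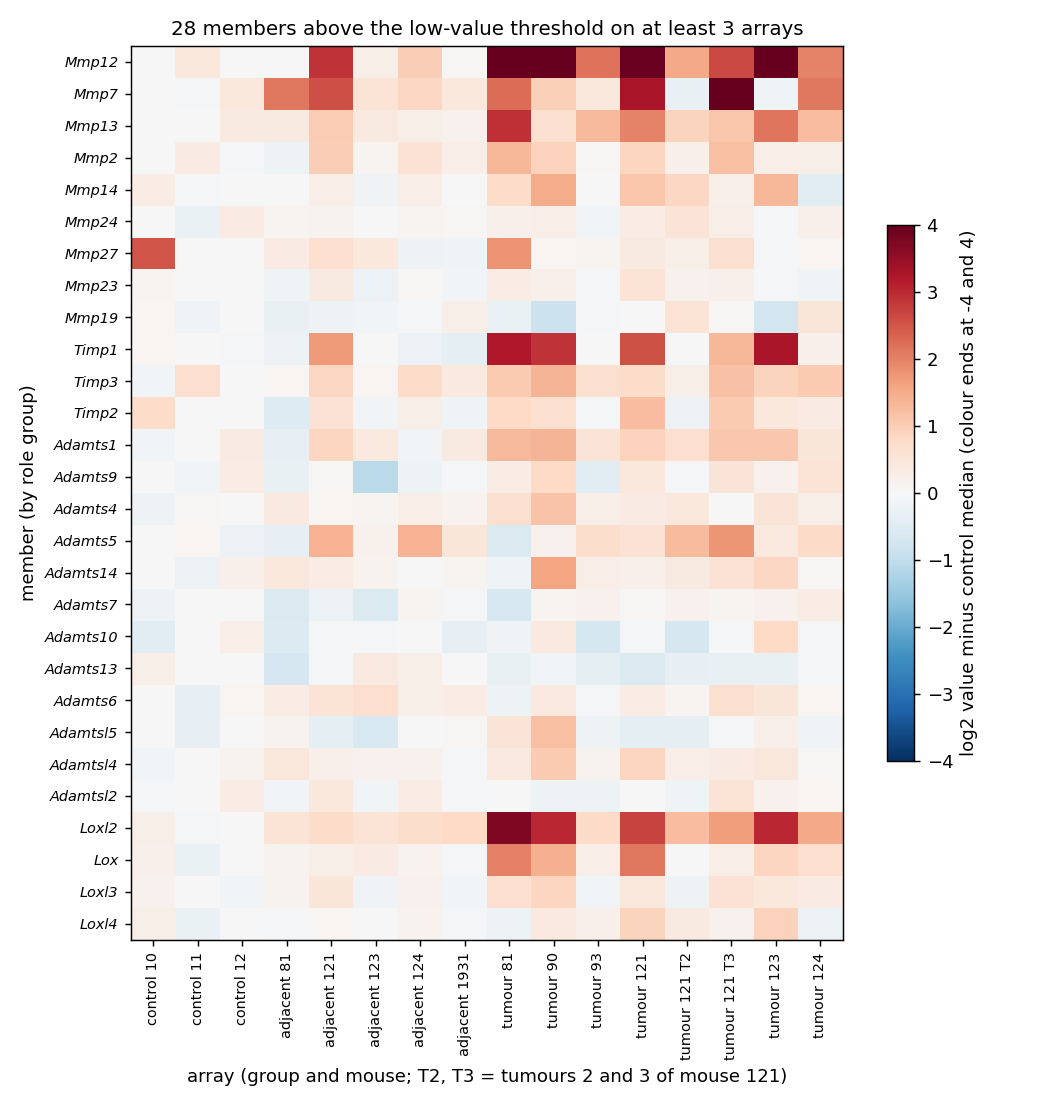
Log2 signal minus the median of the control arrays (colour, ending at -4 and 4) for the 28 members above 4.43 on at least 3 arrays (rows, by role) on the 16 arrays (columns). Tumours 81, 90, 123 and the unnumbered tumour of mouse 121 share high Mmp12, Timp1, Lox and Loxl2 (Timp1 at 6.14 to 6.85), while tumour 93 has Timp1 at 3.58 and Lox at 3.43, near the control values.

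Few differences were called between non-tumoral liver of tumour-bearing mice and control liver, a comparison with 3 control mice. Its 95% confidence intervals were wide for some members, at -0.82 to 2.21 for Mmp12 and -0.11 to 2.47 for Mmp7. No member, and none of the 23279 genes (0%), passed an adjusted p of 0.05. At an unadjusted p under 0.05, Adamts6 was higher by 0.50 ± 0.17 (background 1.61%) and Adamts15 differed by -0.27 ± 0.12 (background 2.94% lower), each with an adjusted p of 0.9985 in limma. Adamts15 stayed below 4.43 on every array. The unadjusted p of Adamts15 was under 0.05 in 15 of 21 alternative analyses, and not without control 11 or 12, without adjacent liver 81, 123 or 124, or with only these groups in the fit. That of Adamts6 was under 0.05 in 21 of 22, and not without control 11. Adamts6 lay at 4.57, 4.24 and 4.65 in controls and at 4.87, 5.12, 5.25, 4.82 and 4.86 in adjacent livers, but at 4.36 to 5.22 in tumours, where it overlapped with both. At least 2-fold differences were found for Mmp7 (1 member higher, 0.168% of all genes) and for none lower (0.168%). For 7 members every adjacent value lay above every control value, against 2.18% of all genes. For none did every value lie below, against 2.04%. The 7 were Mmp7, Loxl2, Adamts4, Adamts6, Adamts18, Adamts20 and Adamtsl3. All but Mmp7 and Adamts6 stayed below 4.43 on every control and adjacent array. For Mmp7 the lowest adjacent value was 5.35 and the highest control value 5.34.

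Read tumour by tumour, the members beyond the range of all 8 control and adjacent arrays differed in number and name. In tumour 81, 18 of 54 members lay above all 8 and 3 below, against 16.2% and 19.5% of all genes, and Lox, Loxl2, Mmp12, Mmp13 and Timp1 were above by at least 1 log2 unit (5 members, against 1.57% of genes). Tumour 90 had 18 above and 7 below (17.2% and 20.7% of all genes), with Adamts14, Adamtsl5, Lox, Loxl2, Mmp12, Mmp14 and Timp1 above by at least 1 unit (1.75%). Tumour 123 had 16 above and 3 below (16.1% and 20%), with Loxl2, Mmp12, Mmp13, Mmp14 and Timp1 above by at least 1 unit (1.75%). Thus Loxl2, Mmp12 and Timp1 exceeded the margin in each of these 3 tumours, and Lox, Mmp13 and Mmp14 each in 2 of them.

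Tumours 124 and 93 had fewer. Tumour 124 had 9 above and 3 below (11.8% and 14.3% of all genes) and none by 1 unit (0.567%). Tumour 93 had 4 above and 6 below (10.5% and 10.7%) and none by 1 unit (0.137%). Its highest excess was 0.26, for Mmp13. Loxl2 exceeded all 8 non-tumour arrays in 7 of 8 tumour arrays, Mmp13 in 6, and Lox, Adamts1, Adamts9, Mmp11, Mmp14 and Timp3 in 5, while Mmp12 and Timp1 did so in 4, with adjacent liver 121 the highest non-tumour array for both. The share of all genes that reached such counts was not determined, so these counts are descriptions only.

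The 3 tumours of mouse 121 differed widely from each other for some members. The unnumbered tumour had 16 members above all 8 non-tumour arrays and 5 below (13.7% and 17.9% of all genes), Tumor2 had 7 and 8 (14.2% and 18.7%), and Tumor3 had 13 and 1 (9.57% and 12.8%). Lox, Loxl2 and Mmp12 were above by at least 1 unit in the first (1.25%), none in Tumor2 (1.03%) and Mmp7 alone in Tumor3, by 1.68 (0.202%). The SD within this mouse against that between the 6 mice was 2.39 and 1.08 for Mmp7, 1.14 and 0.63 for Lox, 1.23 and 1.22 for Mmp12, 1.28 and 1.51 for Timp1, and 0.76 and 1.12 for Loxl2. These 5 were chosen after their values were seen. Over all members the median SD was 0.208 within mouse 121, below the 0.265 between tumour mice, and 0.212 between adjacent livers, against 0.183, 0.216 and 0.189 over all genes. The SD was larger between tumours than between adjacent livers for 53.7% of members and 57.9% of all genes, so greater spread among tumours was no more frequent in this set than in the table as a whole.

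Against the liver of the same animal, Loxl2 was higher in the tumours of mice 121, 124, 123 and 81 by 1.12, 0.83, 2.47 and 3.21, and Mmp13 by 0.29, 0.99, 1.78 and 2.56. Lox was higher by 0.55, 0.52, 0.53 and 1.89 in the same order. Mmp12 differed by -0.18, 0.98, 3.99 and 4.95, and Timp1 by -0.41, 0.45, 3.30 and 3.45, so the tumour value was the higher in mice 124, 123 and 81 and the lower in mouse 121, whose adjacent liver was the highest of the 5. Mmp11 had nearly equal differences of 0.42, 0.57, 0.51 and 0.35. Mmp7 differed by -0.17, 1.29, -0.74 and 0.12. In all 4 mice 7 members were higher in the tumour (13% of members, against 9.97% of all genes) and 3 were lower (5.56%, against 13%).

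**Figure D4:**
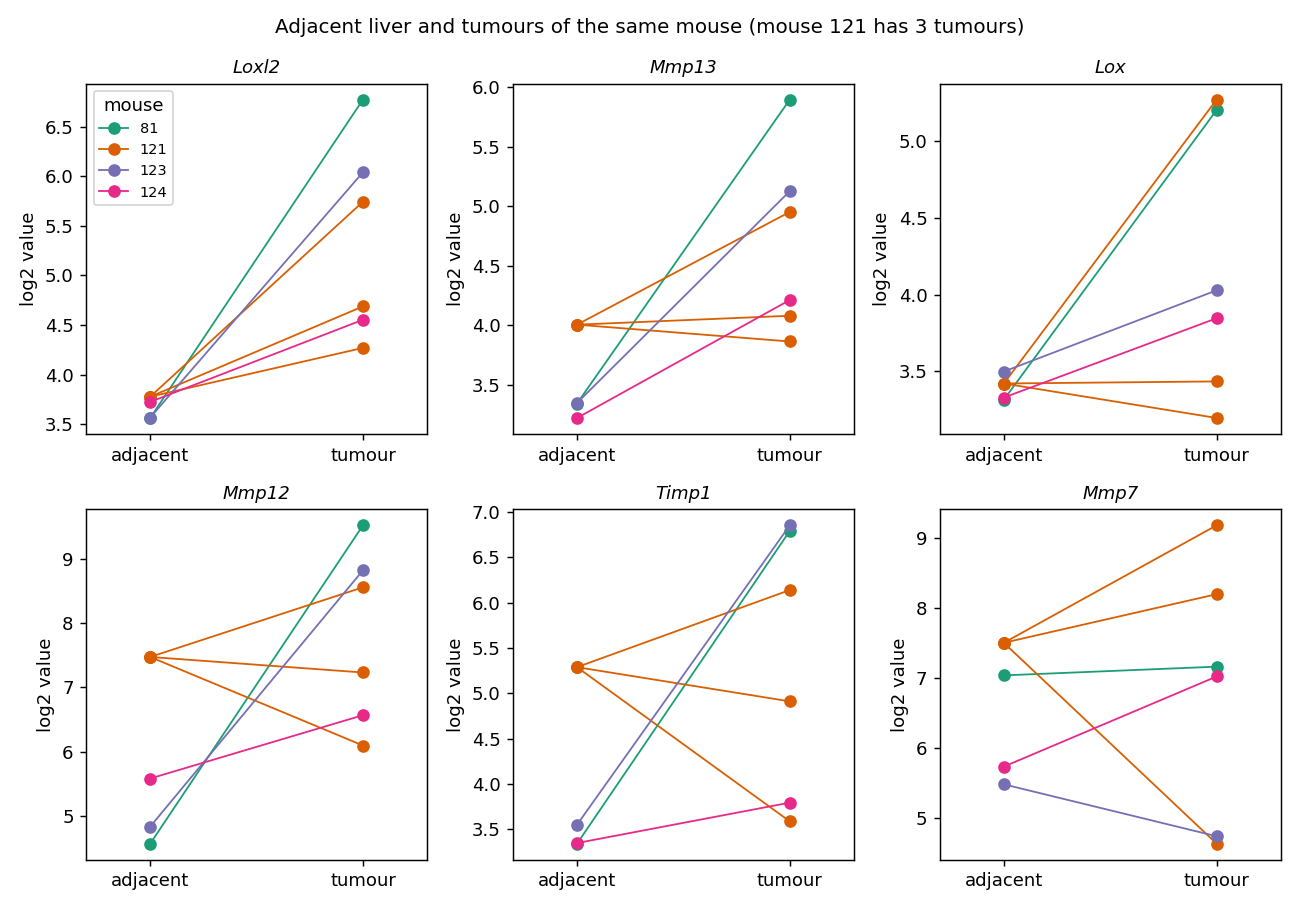
Log2 signal (y axis) of 6 members in adjacent liver and tumour of the 4 mice that gave both (x axis), with a line from the adjacent liver to each tumour, coloured by mouse, so that mouse 121 has 3 lines. Loxl2 lines all slope upward, the Mmp12 and Timp1 lines of mouse 121 go both ways from 7.47 and 5.29, and Mmp7 in that mouse runs from 7.50 to 8.20, 4.63 and 9.18.

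Some markers of non-parenchymal cells moved with the members that were high in some tumours, and others on the same lists did not. Tumours 81, 90, 123 and the unnumbered tumour of mouse 121 were the 4 highest arrays for Mmp12, Timp1, Lox and Loxl2. On the same 4 arrays Gpnmb, a gene of lipid-laden and matrix-associated macrophages, lay at 8.86, 8.63, 7.80 and 8.59, and on the other 12 at 3.76 to 6.23. On the other 12, the macrophage markers Trem2 and Timd4 lay at 4.67 to 5.55 and at 3.64 to 7.30. On those 4 arrays they lay at 5.23 to 6.62 and at 3.37 to 4.09, so both overlapped. The Kupffer cell genes Vsig4 and Clec4f were lowest there, with 2.86, 3.36, 3.78 and 4.49 for Vsig4 against 6.53 to 10.13 on the other 12 arrays, and 4.36, 4.17, 4.34 and 4.17 for Clec4f against 6.08 to 9.37. Endothelial genes went both ways: of the 12 on the list, all measured, 4 were higher and 4 lower in tumours than in adjacent liver at an unadjusted p under 0.05. The sinusoidal gene Clec4g was lowest on those 4 arrays, at 3.98, 4.08, 5.41 and 5.23 against 7.47 to 8.93, while the vascular gene Emcn lay at 6.57, 7.53, 7.84 and 7.27 there, at 5.77 to 7.69 in the other tumours and at 4.84 to 5.84 in non-tumour livers. The endothelial list means were 6.24 to 6.56 in controls, 6.14 to 6.48 in adjacent livers and 5.77 to 6.77 in tumours. The whole macrophage list (14 measured of 16) had means of 5.17 to 7.64 in controls, 5.50 to 6.38 in adjacent livers and 5.12 to 6.33 in tumours; 1 of its genes was higher and 4 were lower in tumours than in adjacent liver at an unadjusted p under 0.05. The hepatocyte mean (8 measured of 10) was 11.08, 11.56, 11.23 and 11.50 on those 4 arrays and 11.62 to 11.88 on the other 12. Genes of this list were unlike each other. Cyp2e1 lay at 8.17, 11.10, 9.32 and 10.26 on those 4 arrays and at 11.43 to 11.99 on the other 12. Alb lay at 11.89, 12.58, 12.45 and 12.47 there and at 12.325 to 12.501 on the other 12, so only tumour 81 was below that range. The stellate and fibroblast list (12 of 12) had means of 5.30 to 5.52 in controls, 5.04 to 5.93 in adjacent livers and 5.03 to 5.98 in tumours, with 2 genes higher and 3 lower, and the neutrophil list (12 of 12) had tumour means of 3.93 to 4.87 against 3.80 to 4.25 in adjacent livers, with none past that threshold. The part of these cells in the member differences was not tested.

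Against adjacent liver, other genes of matrix turnover, counted by list, were more often higher than lower in tumours. Between tumour and adjacent liver, none passed an adjusted p of 0.05. At an unadjusted p under 0.05, which 6.95% of all genes passed as higher and 8.32% as lower, 3 of 6 measured genes of the plasminogen system were higher and none lower, including Plau (0.96 ± 0.28, adjusted p = 0.133) and Plat (1.0 ± 0.30, adjusted p = 0.139), the urokinase and tissue-type activators of plasmin. Of 18 collagen processing and crosslinking genes 7 were higher and none lower, including Sparc, a collagen-binding glycoprotein (1.49 ± 0.33, adjusted p = 0.0718), and Pcolce, an enhancer of procollagen C-proteinase (1.62 ± 0.49, adjusted p = 0.137). Of 19 matrix substrate genes 6 were higher and 1 lower, led by the basement membrane collagen Col4a1 (1.36 ± 0.28, adjusted p = 0.0634) and the fibrillar collagen Col1a1 (1.25 ± 0.38, adjusted p = 0.137). Of 12 cathepsins and cystatins 3 were higher and 1 lower, with Ctsd at 0.42 ± 0.13 and Ctsk at 0.46 ± 0.15. Of 10 genes of the ADAM list 3 were higher and none lower, with Adam15 at 0.51 ± 0.15 and the metalloproteinase inducer Bsg at 0.42 ± 0.15. The median differences of these lists were 0.62, 0.23, 0.41, 0.18 and 0.28 in that order, against -0.03 over all genes. Between tumour and control liver, 2, 3, 7, 2 and 0 genes of these lists were higher at an unadjusted p under 0.05 in limma. In the same order 0, 0, 1, 1 and 1 were lower, against 5.65% of all genes higher and 6.88% lower. In adjacent liver against control, no gene of these 5 lists had an unadjusted p under 0.05 or an adjusted p under 0.05 in limma, where 4.55% of all genes had the former, a share that leaves room for few genes in lists of this size.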

How the data were processed

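The deposited table holds log2 signals of 16 one-colour arrays, one value per probe set; per the submitters' processing notes the authors used RMA and Partek, and the chip's genome build is not given in the sources used here. RMA background correction and normalization compress differences of dim probe sets, so folds of members below the table's median are likely understated. Of 24479 probe sets, 23281 had 1 symbol, 1198 had none and 0 had several. Where a symbol was repeated, the probe set with the highest mean signal was kept, which gave 23279 genes. Levels of different probe sets were not compared as amounts. The number of arrays limits the precision.

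Groups were compared with limma 3.58.1 (R 4.3.3; intensity trend, all groups in 1 fit), with 1 value per mouse, Benjamini-Hochberg adjustment over all genes and no filter; the fit was tested on simulated data. Mice are the replicates, as the sample titles number them. Whether adjacent liver 1931 and tumour 93 came from the same animal is not given, and they were treated as separate. The same mouse number marks the same animal; deviations from the group means correlated by 0.0998, 0.0817, 0.0349 and 0.0994 in mice 121, 124, 123 and 81. Members, role groups and gene lists were chosen with earlier results of these data known. Named genes are Mmp12, the members with the largest differences at an unadjusted p under 0.05, the member with the highest mean signal in each role group, and the 2 context genes per list with the smallest p; Mmp7, Mmp8, Mmp9, Mmp27, Adamts5, Adamts13, Adamtsl4, Adamtsl5, Loxl1, Loxl4, Mmp11, Timp2, Timp4 and the other members and markers were singled out after their values were seen. Alternatives were the mouse as a block, a low-value filter, quantile normalization, median centring, no intensity trend, only the groups compared, each of the 8 tumours as its own value, mouse 121 by its unnumbered tumour only, and leaving out each mouse from 1 group at a time. In that last setting the other tissue of a paired mouse stayed in the fit.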

Additional observations from a re-analysis of the deposited data

Results flagged for a closer look

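For each member, the adjacent livers and the tumours (mouse 121 as 1 value) were checked for a single sample far from the rest, by the gap to its nearest neighbour as a share of the group's range. This picked out 10 of 108 groups. The threshold is set to flag about 1 in 20 groups of normally distributed values. The share flagged over all genes was not determined, so the count says nothing particular about the members. Adjacent liver 121 accounted for 2 of them. Timp1, the inhibitor, lay at 5.29 there, and the next adjacent liver at 3.55. Mmp13, the collagenase, lay at 4.0 there, and the next at 3.35. Without this sample the tumour minus adjacent difference of Timp1 was 2.04 ± 0.60 (adjusted p = 0.133) and that of Mmp13 was 1.31 ± 0.33 (adjusted p = 0.0961).

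Among tumours, mouse 81 had Mmp27 at 6.35, with the next tumour value at 4.96, and Adamts7, an ADAMTS enzyme that cleaves cartilage oligomeric matrix protein, at 4.02, with the next at 4.75. Adamts3, a procollagen N-proteinase, was lowest in tumour 90 at 2.61, and Timp4 was highest in tumour 124 at 3.96. Among adjacent livers, Adamts12 lay at 4.27 in mouse 124, Adamts17 at 4.56 in mouse 81, and Mmp3 and Timp4 at 3.35 and 4.02 in mouse 123. Of these values, those of Adamts3, Adamts7, Adamts12, Mmp3 and Timp4 lay below the table's median of 4.43.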

How the results depend on the processing

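Leaving out single mice, each from 1 group at a time, moved the number of members with an adjusted p under 0.05 from 0 to between 0 and 3 in both tumour comparisons. Without tumour 93, 3 members passed in each (Lox, Loxl2 and Mmp12), while the count over all genes went from 36 to 743 against adjacent liver and from 6 to 242 against control, and without adjacent liver 121, 1 passed against adjacent liver (Mmp12), as it did with only the unnumbered tumour of mouse 121 (1 member). At an unadjusted p under 0.05, the adjacent minus control count of 2 was 1 with the low-value filter and 1 to 6 when leaving out mice, with 6 without control 12 and 1 without adjacent liver 123 or 124. The tumour minus adjacent count of 10 was 8 to 14 when leaving out mice. With the mouse as a block, it was 9 (fixed replicate block over the paired mice) and 13 (random replicate block, within-mouse correlation 0.0732), and the block changed no member's call at the adjusted threshold. Over all genes, the adjusted count of 36 was 0 with the fixed and 206 with the random block. Mmp12, Mmp13, Lox, Loxl2, Adamts1, Timp1 and Timp3 kept an unadjusted p under 0.05 against adjacent liver in all 23 alternatives. The cause of these shifts was not tested. Probe sets below the table's median limit what can be read from 22 members.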

Other observations

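Adjacent livers 121 and 124 shared high values of several stromal genes among the 5 adjacent livers. The fibroblast gene Dpt lay at 7.80 and 7.42 in them, against 5.04 to 5.59 in the other 3. The aggrecanase Adamts5 lay at 5.41 and 5.39 against 3.67 to 4.49, and the gelatinase Mmp2 at 5.26 and 4.85 against 4.05 to 4.52. Timp3 lay at 7.94 and 7.83 against 7.17 to 7.51, and Loxl1 at 4.35 and 4.21 against 3.52 to 3.81. The stellate and fibroblast marker mean, which includes Dpt, was 5.93 and 5.75 against 5.04 to 5.28. Genes of that list did not all follow. Cygb lay at 6.32 and 5.81 against 5.14 to 5.45, but Lrat at 6.88 and 5.79 against 5.04 to 6.28. Ngfr lay at 4.33 and 4.02 against 4.08 to 4.32. These samples were set side by side after their values were seen, and the pattern was not tested.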
